A study of Caenorhabditis elegans with 2 samples.

Results

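A peak of LSY-12 binding was counted as lying at a shared promoter when its summit was within 500 bp of the most 5′ annotated starts of 2 or more protein-coding genes. In the thresholded list of the authors 220 peaks (10.5%) met this rule and 1875 did not. Of the others, 626 had exactly 1 protein-coding start in the window, called single-gene peaks here, and 1249 had none. Binding was read from chromatin of whole Caenorhabditis elegans L3 larvae of mixed sex, precipitated with anti-GFP antibody and sequenced (ChIP-seq), with collection 43 h after synchronization as starved L1 larvae. All animals came from the strain OP568, which carries the unc-119 allele tm4063 on chromosome III and the insertion wgIs568, a transgene that adds GFP and FLAG to the C terminus of LSY-12. There was 1 group, with the biological replicates 3 and 4. It represents 1 transgenic line, and the state of the native gene is not described in the labels. Untagged animals were not analysed here, and how much of the signal would appear without the tag was not tested.

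Genes that lie head to head on opposite strands, with their starts close together, share the stretch of DNA from which both are transcribed. Such divergent pairs are common in compact genomes, and a factor or an open stretch of chromatin between the starts is next to both genes at the same time. LSY-12 belongs to the MYST group of histone acetyltransferases, enzymes that add acetyl groups to histone tails. Many transcripts of this species are trans-spliced, which replaces their first bases with a common leader, so an annotated start can lie downstream of the place where transcription begins.

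The sequences at 5 of the strongest members are shown because they were among the divergent pairs of highest signal on chromosomes II to V and X. Each is up to 100 bases on either side of the summit, kept to the stretch between the starts, and reads along the plus strand of WBcel235 (ce11), taken from the RefSeq genome of that build. Capitals mark matches on either strand to GAGAGA, the GC-rich words GGCGCG and also GAGCGC, the AT-rich word AAATCGA, or the word GAANNTTC, which resembles a pair of the units bound by heat shock factor. The windows are chrIV:4749976-4750176 between Y17G9B.5, which encodes a homologue of the mitochondrial protein ECSIT, and rpl-20, a large-subunit ribosomal protein gene; chrIV:654825-655025 between rpl-15, another such gene, and K11H12.8, a predicted transmembrane protein; chrIV:13240652-13240774 between rpl-12 and lin-54, a DNA-binding subunit of the DREAM complex; chrIV:1094247-1094447 between Y55F3AR.2, a thioredoxin-domain protein, and cct-8, a subunit of the chaperonin that folds actin and tubulin; and chrII:11759383-11759583 between F44E5.4 and F44E5.5, both of which encode a heat shock protein of the HSP70 family.
Y17G9B.5/rpl-20: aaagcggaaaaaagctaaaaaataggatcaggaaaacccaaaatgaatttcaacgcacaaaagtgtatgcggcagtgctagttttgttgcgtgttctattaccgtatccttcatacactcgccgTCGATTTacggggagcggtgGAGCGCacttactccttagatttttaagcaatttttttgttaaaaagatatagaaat
rpl-15/K11H12.8: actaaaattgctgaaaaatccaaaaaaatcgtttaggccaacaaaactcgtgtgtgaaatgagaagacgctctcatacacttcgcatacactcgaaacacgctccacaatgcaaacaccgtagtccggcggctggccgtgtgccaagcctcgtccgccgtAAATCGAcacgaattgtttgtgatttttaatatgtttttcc
rpl-12/lin-54: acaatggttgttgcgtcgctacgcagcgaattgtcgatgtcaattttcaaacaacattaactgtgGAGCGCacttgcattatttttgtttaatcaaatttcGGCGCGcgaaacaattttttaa
Y55F3AR.2/cct-8: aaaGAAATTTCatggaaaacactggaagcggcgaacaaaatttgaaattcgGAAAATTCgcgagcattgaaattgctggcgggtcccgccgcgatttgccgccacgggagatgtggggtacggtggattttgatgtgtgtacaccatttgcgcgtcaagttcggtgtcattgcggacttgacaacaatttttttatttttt
F44E5.4/F44E5.5: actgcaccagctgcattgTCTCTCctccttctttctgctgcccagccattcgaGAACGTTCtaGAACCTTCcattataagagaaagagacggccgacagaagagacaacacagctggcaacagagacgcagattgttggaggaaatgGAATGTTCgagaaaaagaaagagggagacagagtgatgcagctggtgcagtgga

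The window between the HSP70 genes held 3 matches to GAANNTTC and that of cct-8 held 2. Matches to AAATCGA stood in the windows of rpl-20 and rpl-15, and matches to GAGCGC in those of rpl-20 and rpl-12. A match is a description of these letters and not a site of binding.

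Divergent starts made up nearly all of the shared promoters. By the pair of starts nearest to the summit, 205 of the 220 members (93.2%, exact 95% interval 89.0 to 96.1%) were divergent, 10 were on the same strand and 5 were convergent, that is, the genes faced and overlapped each other. In the annotation, 2527 pairs of protein-coding starts lay 1000 bp or less apart, the most that this window can span, and 1794 of them (71%) were divergent, 620 (24.5%) on the same strand and 113 (4.47%) convergent. Of all these pairs, 227 (8.98%) had a thresholded summit within 500 bp of both starts. The share was 11.6% of divergent pairs (10.1 to 13.2%), 2.26% of same-strand pairs (1.24 to 3.76%) and 4.42% of convergent pairs (1.45 to 10.0%). Each replicate was then read alone, through as many of its strongest regions as there are thresholded peaks. The divergent share was 10.9% in replicate 3 and 11.4% in replicate 4, the same-strand share 2.26% and 2.10%, and the convergent share 2.65% and 3.54%. Over all distances the divergent share thus stood above the other shares by more than the replicates differed. The intervals cover counting error only and treat pairs as independent, although neighbouring pairs can share a gene.

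Part of the lower same-strand share went with the distance between starts. Same-strand pairs with starts 200 bp apart or less held a shared summit in 9.26% of 108 pairs (4.53 to 16.4%), against 8.47% of 248 divergent pairs of that distance (5.32 to 12.7%). Convergent pairs of that distance held one in 13.5% of 37 pairs (4.54 to 28.8%), with 8.11% in replicate 3 and 10.8% in replicate 4, so at 0 to 200 bp divergent pairs did not stand above the others. Of the same-strand pairs farther apart, 2 of 24 at 200 to 400 bp and 2 of 168 at 600 to 800 bp held one, and the other bins, of 72 and 248 pairs, held none. Each bin excludes its lower edge. For divergent pairs the share was 17.8% of 484 pairs at 200 to 400 bp, 16.2% of 408 pairs at 400 to 600 bp, 8.52% of 364 pairs at 600 to 800 bp and 1.38% of 290 pairs at 800 to 1000 bp. The stretch within 500 bp of both starts shrinks as the starts move apart, so the shares are also given by its length. Per kb of that stretch, divergent pairs held 0.0976 summits at 0 to 200 bp, 0.252 at 200 to 400 bp, 0.329 at 400 to 600 bp, 0.277 at 600 to 800 bp and 0.132 at 800 to 1000 bp. On both scales the bins from 200 to 600 bp stood above the bin of 0 to 200 bp.

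**Figure D1:**
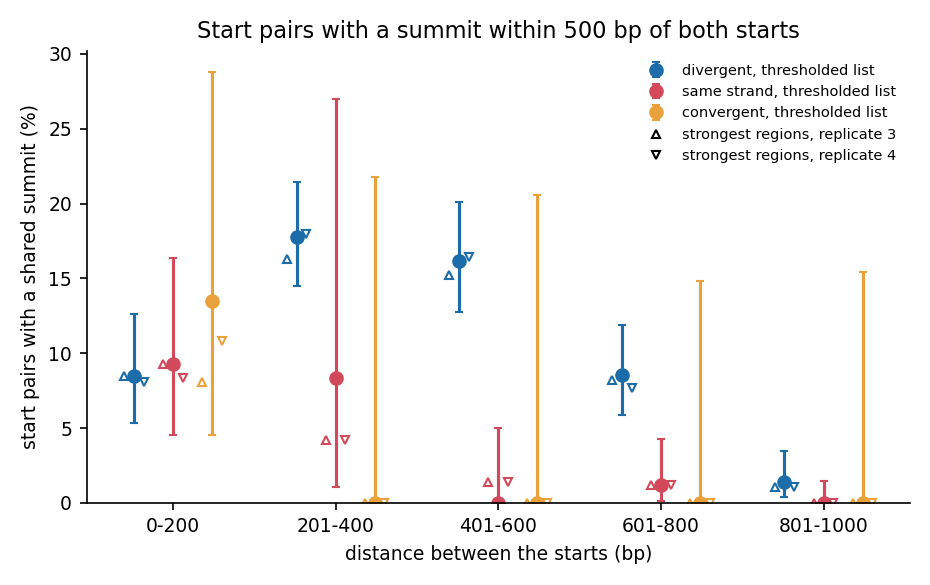
Share of annotated start pairs with a summit within 500 bp of both starts, in percent, by the distance between the starts in bp. Filled points with bars are thresholded peaks with exact 95% intervals, and open triangles are the strongest regions of each replicate. Divergent pairs peak at 17.8% for starts 200 to 400 bp apart and reach 1.38% at 800 to 1000 bp.

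Summits were dense in the sequence that belongs to several starts. The 1.15 Mb of the genome within 500 bp of 2 or more starts held 192 thresholded summits per Mb, the 17.7 Mb within 500 bp of exactly 1 start held 35.4 per Mb, and the rest held 15.3 per Mb. The density at shared promoters was 5.41 times that at single-gene promoters in the thresholded list, and 5.29 and 5.36 times in the strongest regions of replicates 3 and 4 (5.32 ± 0.0484, SD, n = 2). A window around a single start includes much gene body, so the same ratio was taken, after these values were seen, over sequence upstream of the starts and outside protein-coding genes. It was 374 summits per Mb upstream of 2 or more starts against 67.9 per Mb upstream of exactly 1, a ratio of 5.50. The ratio depended on the width of the window: it was 6.71 with 250 bp and 2.89 with 1000 bp.

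Counted by gene, 1050 of 19973 protein-coding genes (5.26%) had a thresholded summit in the window. Of genes with a divergent start within 1000 bp, 464 of 3539 (13.1%, 12 to 14.3%) did, against 514 of 15282 genes (3.36%, 3.08 to 3.66%) with no other start within 1000 bp. Of the 1050 genes with a summit, 442 (42.1%) shared it with another gene. A gene next to a divergent start counts a summit that may sit nearer to its neighbour, so these shares count starts and not separate events of binding. Leaving out all genes of the 15 functional lists described further on, the shares were 11.9% of 2989 genes with a divergent start and 3.55% of 13186 genes with none nearby. That comparison was added after the shares were seen.

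In divergent pairs more than 200 bp apart the summit mostly lay between the starts. Of the 205 divergent members, 187 (91.2%, 86.5 to 94.7%) had the summit between the starts. The count was 12 of 21 (57.1%, 34.0 to 78.2%) for starts up to 200 bp apart, 75 of 83 (90.4%) at 200 to 400 bp and 65 of 66 (98.5%) at 400 to 600 bp. For all annotated divergent pairs, the part between the starts was 15.4%, 42.3% and 90.2% of the stretch allowed by the rule in these bins. Beyond 600 bp it was all of that stretch, so the rule fixed the position there. Over all distances, the summits of the overlapping replicate regions lay between the starts in 187 members in replicate 3 and in 187 in replicate 4. The starts were 12 to 900 bp apart, with a median of 396 bp (quartiles 286 and 528 bp), against a median of 480 bp (277 and 703 bp) over all 1794 divergent pairs. The summit was a median of 61 bp from the midpoint of the starts, 138 bp from the nearer start and 271 bp from the farther start. The replicate summits were a median of 61 bp (replicate 3) and 60 bp (replicate 4) from the midpoint.

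The window of the rule by itself favours the middle, so the same count was taken per kb of allowed sequence. Over all 1794 divergent pairs, the part of the shared window between the starts was 55.8% of its length. It held 0.380 thresholded summits per kb, against 0.0452 per kb in the flanking part, which reaches into the genes. The strongest regions gave 0.350 against 0.0502 per kb in replicate 3 and 0.370 against 0.0502 per kb in replicate 4. At 200 to 400 bp, where both parts were long, 78 summits lay between the starts and 8 in the flanks. In each list the sequence upstream of both genes thus held more summits per kb than the sequence inside them.

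With no window at all, summits were also read between neighbouring divergent starts up to 2000 bp apart. The median distance to the nearer start was 99 bp for 76 summits at start distances of 200 to 400 bp, 179 bp for 69 summits at 400 to 600 bp, 226.5 bp for 46 summits at 600 to 800 bp and 205 bp for 25 summits at 800 to 1000 bp. It was 253 bp for 53 summits at 1000 to 1500 bp and 285 bp for 45 summits at 1500 to 2000 bp. As a share of the largest distance possible, it was 0.747 at 400 to 600 bp and 0.314 at 1500 to 2000 bp. It was 0.692 at 200 to 400 bp, 0.655 at 600 to 800 bp and 0.489 at 800 to 1000 bp, where a summit placed evenly between the starts would be at 0.5. Summits thus lay toward the middle for starts 200 to 800 bp apart and showed no such preference at 800 to 1000 bp. The summit was the exact middle of the called region, within 0.5 bp, in 182 members (82.7%) and in 90.2% of all thresholded peaks. The median region was 410 bp wide. For most members the summit thus holds no position beyond that of the region.

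**Figure D2:**
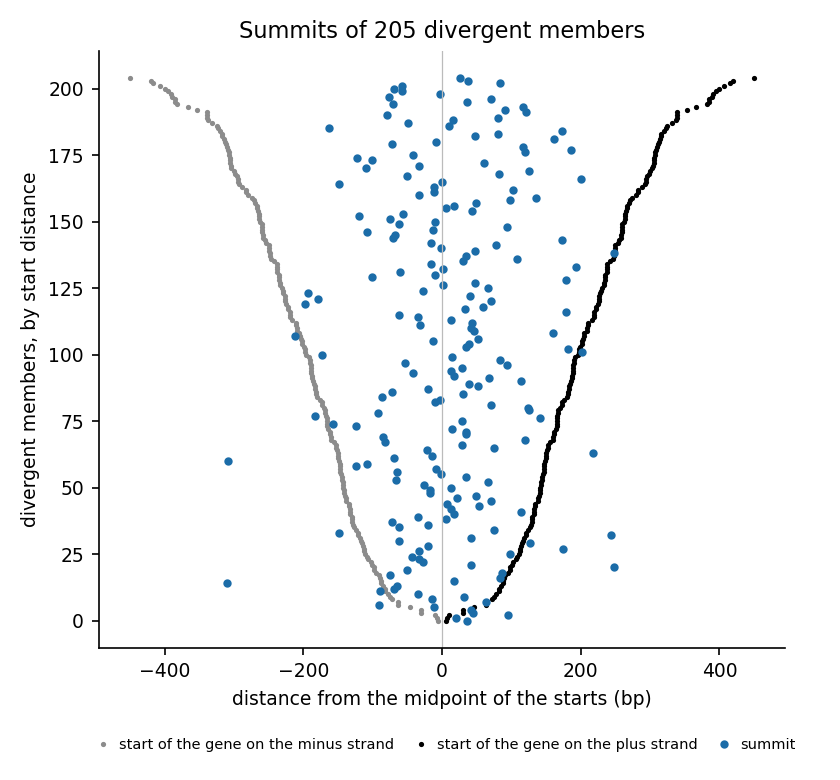
Position of the summit in each of the 205 divergent members, as the distance in bp from the midpoint of the starts. Each row is 1 member, ordered by the distance between its starts; grey and black dots are the starts on the minus and plus strands and blue dots the thresholded summits. Summits fall between the starts in 187 members.

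Signal at shared promoters was modestly higher than at single-gene promoters. The deposited signal of a region comes with no stated scale, so it was divided by the median signal of all 30000 candidate regions of the same replicate, and this ratio is the relative signal here. All 220 members overlapped a candidate region in both replicates, and 624 of the 626 single-gene peaks did. The median relative signal of the members was 3.28 in replicate 3 and 3.46 in replicate 4, against 2.93 and 3.16 for single-gene peaks, and 2.84 and 2.97 for all thresholded peaks. The ratio of members to single-gene peaks was 1.12 in replicate 3 and 1.09 in replicate 4 (1.11 ± 0.0194, SD, n = 2). The distributions overlapped almost completely, with quartiles of 2.38 and 4.79 for members and 2.31 and 4.31 for single-gene peaks in replicate 3. With a window of 250 bp the ratio was 0.981, so its direction depended on the window.

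Divergent and same-strand members overlapped in signal, and convergent members were lower. Divergent members had a median relative signal of 3.33 in replicate 3 and 3.64 in replicate 4, same-strand members 3.19 and 3.23, and convergent members 2.12 and 2.27. The smaller classes hold 10 and 5 peaks. The upper quartile of convergent members was 2.19 in replicate 3 and 2.66 in replicate 4, against lower quartiles of 2.39 and 2.60 for divergent members. Among divergent members, signal hardly went with the distance between the starts: Spearman's rho across the 205 members was 0.0991 in replicate 3 and 0.0962 in replicate 4, a description over regions that share both libraries.

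The share of shared promoters was highest among the strongest peaks. Of the 100 thresholded peaks with the highest signal, 23 were members (23%, 15.2 to 32.5%). Members were 15.5% of the next 400 peaks, 10% of the following 500, 8.2% of the 500 after those, and 7.39% of the last 595 (5.42 to 9.80%). The replicate lists gave 23% and 24% of the first 100 regions and 6.72% and 7.23% of the last 595, in replicates 3 and 4. Single-gene promoters held 35% of the first 100 thresholded peaks and 26.7% of the last 595.

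**Figure D3:**
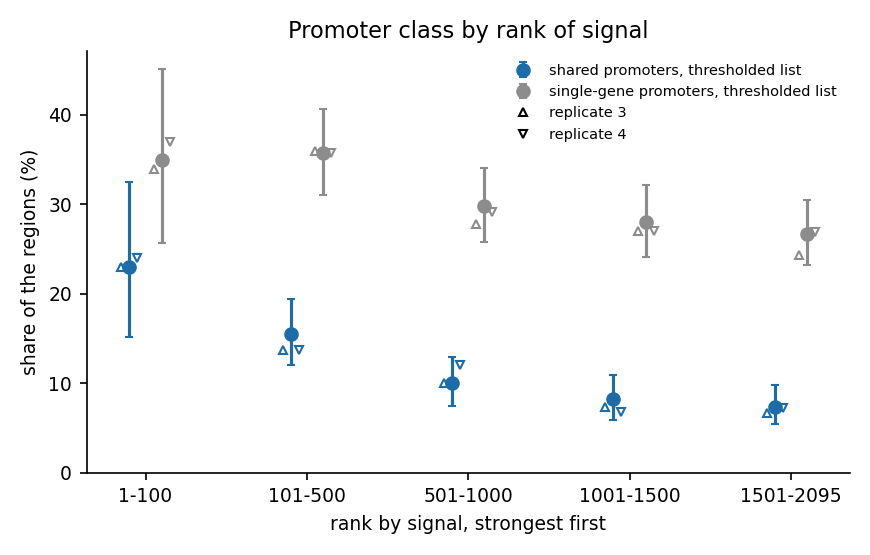
Share of regions at shared and at single-gene promoters, in percent, by rank of signal. Filled points with bars are thresholded peaks with exact 95% intervals, and open triangles are the replicate lists ranked on their own. Shared promoters make up 23% of the first 100 thresholded peaks and 7.39% of the last 595.

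The replicates gave like values for most members. The thresholded list was itself made from these replicates, by the irreproducible discovery rate, so part of this likeness can be built in. Of the 220 members, 179 (81.4%, 75.6 to 86.3%) were among these strongest regions of both replicates, against 72.2% of single-gene peaks and 70.6% of all thresholded peaks. Another 37 were among the strongest of 1 replicate and 4 of neither. In the thresholded list, 157 members had q of at most 0.01 (71.4%), against 62.5% of single-gene peaks and 58.3% of all peaks. Spearman's rho between the replicates was 0.841 over members, 0.756 over single-gene peaks and 0.689 over all peaks, and the replicate summits were a median of 14.5, 17 and 25 bp apart. The members also have the higher signal, and its part in these shares was not tested.

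Relative signal differed by less than 2-fold between the replicates in 218 of 220 members. The peak between nduf-6, a subunit of respiratory complex I, and nars-1, the cytoplasmic asparagine tRNA ligase, had 2.91 in replicate 3 and 0.871 in replicate 4, below the median of all candidate regions there. The other exception, between F53C11.5 and F53C11.4, had 1.45 and 3.7. Both were named for this gap after their values were seen, and by signal they stood at ranks 1983 and 1341 of the thresholded list.

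**Figure D4:**
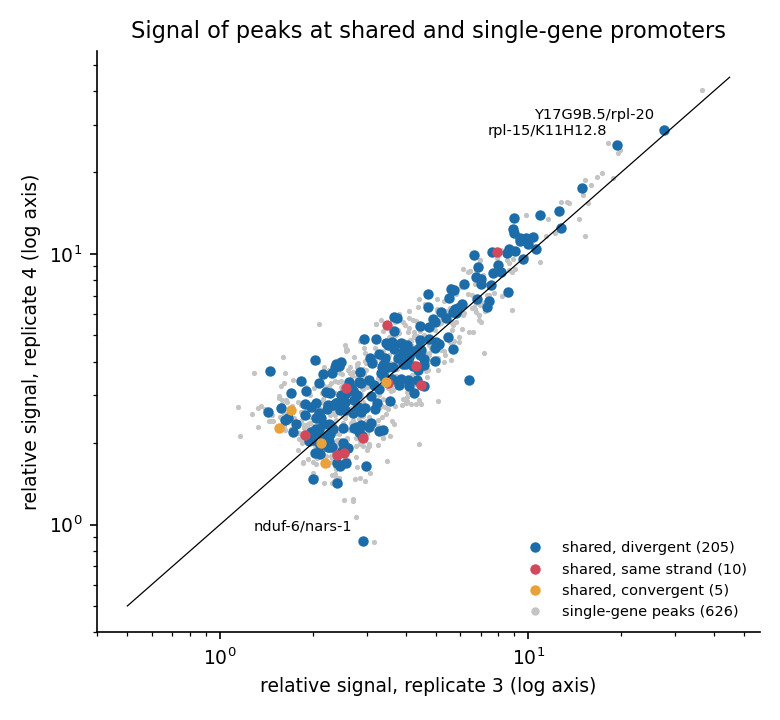
Relative signal of each peak in replicate 3 (horizontal, log axis) and replicate 4 (vertical, log axis), with the line of equal values. Blue, red and yellow dots are the 205 divergent, 10 same-strand and 5 convergent members, and grey dots the single-gene peaks. The member nduf-6/nars-1 has 2.91 and 0.871, close to a single-gene peak with 3.16 and 0.859.

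The members of highest signal were divergent, and 6 of the first 12 held a cytosolic ribosomal protein gene. The peak between Y17G9B.5 and rpl-20, whose sequence is the first shown, had a relative signal of 27.7 in replicate 3 and 28.8 in replicate 4, the second highest signal of all thresholded peaks. That between rpl-15 and K11H12.8 had 19.4 and 25.3, and that between hsr-9, a homologue of the DNA damage protein 53BP1, and rps-19, a small-subunit gene, had 14.9 and 17.5. The peak of rpl-12 and lin-54 had 12.6 and 14.5, with its summit 23 bp from the start of rpl-12. The peak of ska-3, a spindle and kinetochore protein gene, and rps-12, a small-subunit ribosomal protein gene, had 12.8 and 12.5, and that of rps-15 and F36A2.9 had 9.41 and 11.4. All of these values lay far above the upper quartile of the members, 4.79 in replicate 3 and 5.23 in replicate 4.

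The other 6 of these 12 members held genes of several roles. The peak of Y55F3AR.2 and cct-8 had a relative signal of 10.9 in replicate 3 and 13.9 in replicate 4. The peak of the HSP70 genes F44E5.4 and F44E5.5 had 10.4 and 11.5, with the summit 172 and 179 bp from their starts. The peak of rpn-3, a subunit of the proteasome cap, and hsp-110, a nucleotide exchange factor for HSP70, had 8.89 and 12.4. That of trap-3, a translocon-associated protein, and sec-61.B, the beta subunit of the translocon through which new proteins enter the endoplasmic reticulum, had 9.82 and 11.4, and here both genes act in the same process. The peak of atp-1, the alpha subunit of the mitochondrial ATP synthase, and mcrs-1, a forkhead-associated domain protein, had 8.98 and 13.5. That of drr-2, an RNA-binding translation factor, and set-16, a histone methyltransferase of the MLL family, had 10.6 and 10.4.

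Same-strand members were mostly genes with nearly the same annotated start. Their starts were a median of 27 bp apart, and only 2 of the 10 summits lay between the starts. The strongest was at egl-30, a G protein alpha subunit, and C53H9.4, with 7.92 and 10.2, followed by tub-2, a Tubby-domain gene, and Y71G12A.5, with 3.48 and 5.44. The peak of pqn-51 and K11D12.14 had 4.50 and 3.27. At unc-60 and F53E2.2, both annotated as actin-depolymerizing factors, the starts were identical, 431 bp from the summit, and the values were 2.57 and 3.2. The peaks with 3 starts in the window were 4. They were at elof-1, lin-7 and Y54G11A.17 (4.10 and 4.16), at atp-2, the beta subunit of the ATP synthase, with C34E10.10 and C34E10.12 (3.68 and 4.47), at rbc-2, Y54F10AM.15 and ndua-8 (4.33 and 3.87), and at ZK856.11, ZK856.19 and ZK856.16 (3.50 and 3.34).

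None of the 5 convergent members had its summit between the starts, where the genes overlap. Their starts were 51 to 198 bp apart, with a median of 74 bp. The overlap was thus a small part of the stretch allowed by the rule, and 5 summits cannot show whether it was avoided. The strongest was at mrps-35, a mitochondrial ribosomal protein gene, and sws-1, with 3.46 and 3.37. The peaks of abcf-3 and F42A10.5 (1.70 and 2.66), B0464.9 and B0464.6 (2.12 and 2.0), and pus-1, a pseudouridine synthase, and ctps-1, which makes CTP (2.19 and 1.69), were lower. Only 1 of the 5 was among the strongest regions of both replicates. The weakest members of all by thresholded signal were hcp-6/let-630 (2.10 and 2.09), rps-9/lsm-1 (2.0 and 1.48) and mboa-7/git-1 (1.73 and 2.20), all divergent.

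Cytosolic ribosomal protein genes held more member peaks than any other of the 15 lists. Of 81 such genes, 46 (56.8%) had a thresholded summit, against 5.26% of all genes. Of the 46, 29 (63.0%) shared it, at 26 member peaks, against 42.1% over all genes with a summit. In 3 of these peaks both genes were ribosomal, at rps-14/rpl-36 (5.69 and 6.12), rpl-24.1/rps-10 (3.93 and 4.35) and rpl-39/rps-30 (3.34 and 3.81). The median relative signal of the 26 peaks was 4.15 in replicate 3 and 4.53 in replicate 4, against 5.68 and 5.48 for the 17 single-gene peaks of this list. The list was also rich in the arrangement: 48 of its 81 genes (59.3%) had a divergent start within 1000 bp, against 17.7% of all genes. Of those 48, 32 had a summit, and of the 33 without a divergent neighbour 14 did. Of the 32, 29 shared the summit, beside 415 of 464 over all genes with both a divergent start and a summit. Among such genes the list thus shared about as often as all genes. Other genes of protein synthesis were fewer, with 5 of 8 mitochondrial ribosomal protein genes, 4 of 9 translation factor genes and 2 of 3 aminoacyl-tRNA synthetase genes with a summit sharing it. Among them were eef-2, the elongation factor that moves the ribosome along, with clsp-1 (9.43 and 11.2), eef-1A.1, which brings tRNAs to the ribosome, with rfc-4 (6.66 and 9.90), and ears-2, a mitochondrial tRNA synthetase, with uncp-18 (5.12 and 4.63). The mitochondrial ribosomal protein gene mrps-7, with Y57G11C.3, had 4.47 and 4.24.

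Most of the chaperone, proteasome, histone and splicing genes with a summit shared it, beside 42.1% of all genes with a summit. Divergent starts within 1000 bp were also common in these lists, at 47.5% of chaperone genes, 63.6% of proteasome genes, 78.0% of histone genes and 64.5% of splicing genes, against 17.7% of all genes. Of all genes with both a divergent start and a summit, 415 of 464 shared it. In these lists 12 of 13 such chaperone genes, 8 of 8 proteasome, 11 of 11 histone and 6 of 7 splicing genes did. A summit was found at 27.1% of chaperone, 30.3% of proteasome, 15.9% of histone and 29.0% of splicing genes. The share was 5.26% over all genes and 13.1% over genes with a divergent start. Of 59 genes named as heat shock proteins, J-domain proteins or chaperonin subunits, 16 had a summit and 12 shared it, at 11 peaks, and of 33 proteasome genes 10 had a summit and 8 shared it. The HSP70 genes F44E5.4 and F44E5.5 carry no such name and are not in that count. The divergent pair hsp-16.41 and hsp-16.2, small heat shock proteins, had 2.54 and 2.83, below the median of the members. The peak of rpn-5 and scc-1, a cohesin subunit, had 3.07 and 4.14. Of the 64 histone genes with a divergent start 11 had a summit, beside 464 of 3539 over all genes with such a start. Of 82 histone genes, 13 had a summit and 11 shared it, at 6 peaks. In 5 of those peaks both genes were histone genes, of which his-68 (H2A) and his-67 (H4) had the highest values, 4.98 and 5.58. The remaining peak, of wapl-1, which releases cohesin from DNA, and htz-1, the variant H2A.Z, had 7.05 and 7.72. Core histone genes occur in many nearly identical copies, and reads from them can be placed on the wrong copy, although none of the windows of 100 bp on either side of these 6 summits held a 32-mer that occurs again in the genome. Over all members, 10 of 220 windows had more than 10% of such 32-mers, from 15.3% at rpl-7A/set-21 to 79.4% at tofu-1/ruvb-1, with 75.3% at F30A10.9/usp-48 and 27.1% at C28G1.2/sec-15. Of 31 splicing factor genes, 9 had a summit and 6 shared it, at 4 peaks, and rsp-1 with rsp-2, both SR proteins, had 5.40 and 5.82. The peak of prp-40 and clu-1 had 4.23 and 4.39.

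In the lists of energy supply and secretion, genes with a summit shared it about as often as all genes with a summit. Of 14 oxidative phosphorylation genes with a summit 6 shared it (42.9%), and of 12 secretory genes 5 did (41.7%), beside 42.1% of all genes with a summit. Of 7 genes of RNA polymerase and general transcription 2 did. A summit was found at 31.8%, 23.5% and 9.86% of the genes of these 3 lists, against 5.26% of all genes. Divergent starts within 1000 bp stood at 50% of oxidative phosphorylation genes and 35.3% of secretory genes, against 17.7% of all genes. Of the oxidative phosphorylation genes, 6 of 22 with such a start and 8 of 22 without one had a summit. For secretory genes these counts were 6 of 18 and 6 of 33. The oxidative phosphorylation list goes by older gene names and leaves out the complex I genes nduf-6, ndua-2, ndua-8 and ndub-8, which also share a summit, so its count is not that of the whole pathway. Examples were mev-1, a subunit of succinate dehydrogenase, with jmjd-4 (5.47 and 4.95), sec-15, an exocyst subunit, with C28G1.2 (7.43 and 6.68), mdt-26, a Mediator subunit, with ift-43 (2.93 and 4.85), and rpb-3, a subunit of RNA polymerase II, with pas-4 (1.89 and 2.79).

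Summits were few in several large gene families of the nematode. Of 1308 chemoreceptor genes 4 had a summit (0.306%), and of 412 genes of the F-box, MATH and BTB families 3 did (0.728%). Of 169 collagen genes 2 did (1.18%). The share was 5.26% over all genes and 3.36% of genes with no other start within 1000 bp. Of 269 nuclear hormone receptor genes 9 had a summit (3.35%), close to the share of genes with no other start within 1000 bp. Of the genes with a summit, 3 of 4 chemoreceptor, 2 of 3 F-box, MATH or BTB and 1 of 2 collagen genes shared it. So did 3 of 9 nuclear hormone receptor genes, beside 42.1% of all genes with a summit. All 3 chemoreceptor genes with both a divergent start and a summit shared it, beside 415 of 464 over all genes. The peak of sri-5 lay with rsr-1, a splicing co-activator (4.45 and 4.79). The F-box gene fbxb-85 lay with hex-3 (6.79 and 8.21), bath-36 with cyn-7 (3.27 and 4.25), and the collagen gene col-38 with rpl-5 (4.22 and 3.84). The nuclear hormone receptor gene nhr-68 lay with H12C20.7 (7.68 and 8.49) and nhr-47 with dnj-19, a J-domain co-chaperone (6.79 and 6.82). Of all 220 members, 139 had no gene in any list, 63 had 1 and 18 had 2.

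**Figure D5:**
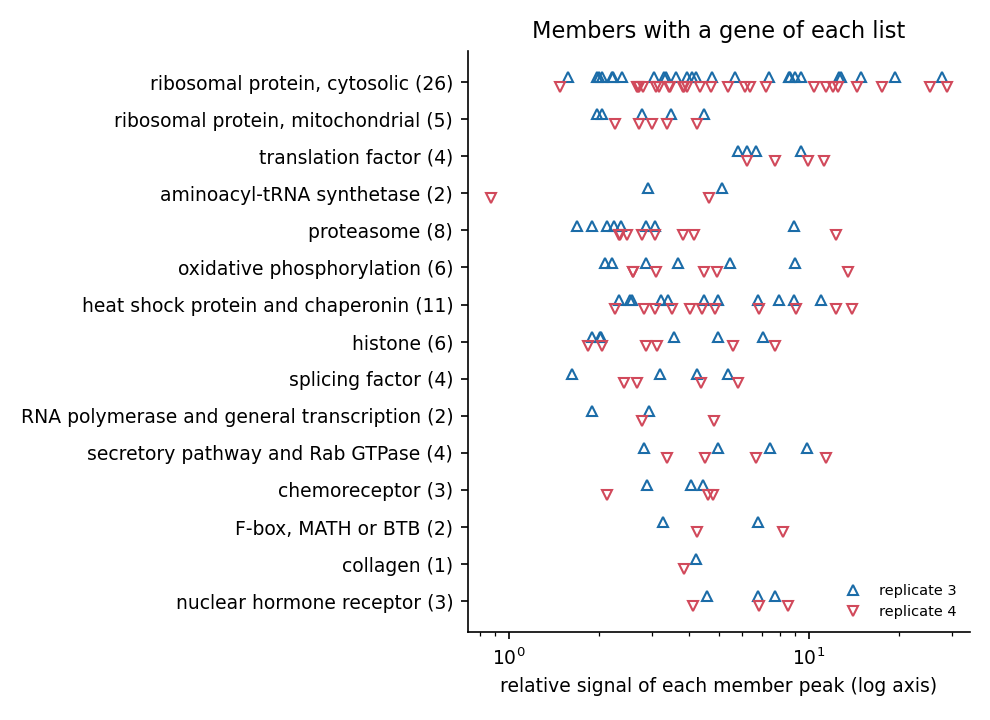
Relative signal (log axis) of each member peak that has a gene in a list, with the number of such peaks in brackets. Upward triangles are replicate 3 and downward triangles replicate 4, and a peak can stand in several lists. The 26 peaks of cytosolic ribosomal protein genes range from 1.57 to 27.7 in replicate 3 and from 1.48 to 28.8 in replicate 4, with medians of 4.15 and 4.53.

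Shared promoters were rare among the peaks of the X chromosome. Chromosome X held 8 of the members among its 414 peaks (1.93%), against 9.88 to 14.8% of the peaks of each autosome. The annotation also holds few pairs there, with 81 divergent pairs on X and 1713 on the autosomes. Of these pairs, 7 on X (8.64%, 3.55 to 17.0%) and 11.7% of those on the autosomes (10.2 to 13.4%) had a shared summit, and the intervals overlap.

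Few members lay beside tRNA genes. A tRNA start was within 500 bp of 2 members (0.909%), against 5.43% of single-gene peaks and 11.8% of peaks with no protein-coding start. A snoRNA start was near 6 members (2.73%), against 3.35% of single-gene peaks. A snRNA start was near 2 members (0.909%), against 0.639%, and a miRNA start near 2 members (0.909%), against 0 of 626. The 12 members with any of these had a median relative signal of 5.92 in replicate 3 and 6.29 in replicate 4, against 3.22 and 3.42 for the other 208. They include the peaks of ska-3/rps-12, rpl-7A/set-21, rfc-4/eef-1A.1 and both peaks of Y75B8A.23/tim-1, the only pair with more than 1 summit. Those 2 peaks overlap the same candidate region in each replicate, so their replicate values are identical and count as 1 measurement.

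Sequence at the members was poorer in G and C than at other peaks, and richer than at divergent promoters without a peak. The median GC content within 100 bp of the summit was 41.3% for members, 43.3% for single-gene peaks and 44.3% for all peaks. At the midpoints of divergent pairs 200 to 600 bp apart, it was 37.8% for 152 pairs with a shared peak and 33.6% for 740 pairs without. GGCGCG was found on either strand in 20% of divergent members, 13.9% of single-gene peaks and 5.54% of the midpoints without a peak. TATAAA, the core of the TATA box, was found in 14.6%, 13.1% and 28.4%, and runs of 8 T in 16.1%, 11.5% and 23.9%. GAGAGA was found in 25.9% of divergent members, 32.4% of single-gene peaks and 37.3% of all peaks, against 14.9% of midpoints without a peak. CACGTG, the E-box, was found in 7.32% of divergent members and 7.67% of single-gene peaks. At the midpoints of divergent pairs it was in 3.29% of those with a shared peak and 2.97% of those without. GGTTCGA, part of the internal promoter of tRNA genes, was found in 0.976% of divergent members against 7.64% of all peaks. At the midpoints of pairs with a shared peak, which are centred like those without, GGCGCG was in 13.8%, TATAAA in 19.1%, the run of T in 16.4% and GAGAGA in 24.3%. The windows with a peak are also richer in GC, and its part in these shares was not tested.

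Motifs read in the printed windows were counted afterwards, so these counts describe and support nothing. AAATCGA was in 22.0% of divergent members, 12.8% of single-gene peaks and 13.4% of the midpoints without a peak, and GAGCGC in 22.0%, 16.5% and 7.43%. GCGCCA, which can overlap both GC-rich words, was in 23.9%, 16.9% and 4.32%, and GAANNTTC in 18.0%, 9.11% and 14.3%. The midpoints and the summit windows are centred differently, and at the midpoints of pairs with a shared peak these motifs were in 25.7% (AAATCGA), 19.7% (GAGCGC), 17.1% (GCGCCA) and 16.4% (GAANNTTC). For GAANNTTC that is close to the 14.3% without a peak.

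The limit of 500 bp passed through a continuous range of distances. Just inside it lay T07A9.12/kgb-1 (second start at 499 bp; 2.44 and 2.64), the weaker of the Y75B8A.23/tim-1 peaks by thresholded signal (496 bp; 5.92 and 6.29) and C06A5.3/simr-1 (495 bp; 5.68 and 4.46). Just outside lay pak-2/C45B11.9 (503 bp; 1.78 and 2.85), snt-2/rps-29 (504 bp; 4.16 and 4.20) and rps-1/ifet-1 (505 bp; 16.7 and 19.2). The peak of rps-1, a ribosomal protein gene, and ifet-1, a translational repressor, exceeded all but 2 of the members in both replicates. The 38 members with the second start at 400 to 500 bp had a median relative signal of 3.28 and 3.64, and the 18 peaks with it at 500 to 600 bp had 2.83 and 3.51.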

How the data were processed

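The samples were 2 biological replicates of 1 group, ChIP-seq libraries from whole larvae of 1 transgenic strain. The deposited lists hold 30000 candidate regions for each replicate and for the pooled data, and a list that the authors thresholded by the irreproducible discovery rate, per the file names. Which aligner and which peak caller were run is not given in the sources used here. As deposited by the authors, signal has no stated scale and was used to rank and describe regions. The deposited −log10 q-value served only to count peaks with q of at most 0.01. Summits came from the deposited summit offset. Read depth is unknown from these lists.

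Positions are ce11 (WBcel235) and count from 1. Starts of 19973 protein-coding genes came from Ensembl release 115, and sequences and product names from the RefSeq genome of the same build. A replicate value came from the strongest region that overlapped the peak by at least 1 bp. Each 95% interval is exact (Clopper-Pearson) and covers only counting error. No significance test was run, since a single group with 2 replicates allows no comparison between groups and regions are not replicates. Members, gene lists and motifs were chosen with earlier results of these data known, and name patterns of the lists that matched wrong genes were corrected after the files were read. Genes named were those at the 12 strongest divergent, 6 same-strand and 4 convergent members, the 4 members with 3 starts, the 3 weakest members, those next to the limit of the window and the 2 strongest of each list, with exceptions stated. The values of 1 such pair and the sequence at another are not reported here. The counts were tested on simulated starts and peaks. Alternatives were other windows, starts, peak sets, summits, overlaps and signals, and each replicate alone. Python 3.11.15, pandas 2.3.3, NumPy 2.4.6, SciPy 1.17.1 and matplotlib 3.10.9 were used.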

Additional observations from a re-analysis of the deposited data

How the results depend on the processing

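Of 81 alternative values, 46 stayed within a limit around the main value and 35 moved. For percentages the limit was the exact interval of the main value, and for counts it was 1.5 times. For distances, signals and density ratios it was the spread of the replicates. The signals of 1 replicate alone always lie within that spread, so these values could not move. The region middle was already the summit in 90.2% of thresholded peaks, so this alternative could hardly move a value. With a window of 250 bp there were 92 members (4.39% of peaks), with divergent starts a median of 281 bp apart, a median relative signal of 3.07, a ratio to single-gene peaks of 0.981, 9.34% of divergent pairs with a shared summit and a density ratio of 6.71. With 1000 bp these values were 352 members (16.8%), 476 bp, 3.51, 1.21, 10.1% and 2.89, and 81.2% of members were divergent. Peaks of above-median signal gave 138 members (13.2%), 422 bp, 7.47% of divergent pairs and a density ratio of 6.33. Peaks with q of at most 0.01 gave 12.8%, 407 bp, 8.47% and 6.19. Taking every annotated transcript start gave a median start distance of 394 bp and a signal ratio of 1.14. The pooled list gave a relative signal of 3.74 and a ratio of 1.14, and the signal of the thresholded list a ratio of 1.16. Among the 1000 strongest regions of both replicates were 52.3% of members, and among the 4000 strongest 96.8%. The density ratio over upstream sequence, an alternative added after seeing the data, was 5.50. Leaving out either replicate meant reading the strongest regions of the other. That gave 205 to 216 members, 394 to 395.5 bp, 10.9 to 11.4% of divergent pairs and a density ratio of 5.29 to 5.36. For signal, the thresholded peaks of both replicates were kept and read in 1 replicate. The relative signal was then 3.28 to 3.46 and the signal ratio 1.09 to 1.12, the values of each replicate given above. The causes were not tested. The share of divergent members with the summit between the starts stayed between 89.2 and 92.9% in all alternatives run. Each alternative kept a rule that itself favours this position, so the share had limited room to move. Pair occupancy with every transcript start was not run. No paired analysis was possible because there is only 1 group. Depth is not given in the lists, so which weak shared promoters were missed for lack of reads is unknown.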
